A study of Mus musculus with 2 samples.

Results

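The vacuolar ATPase (V-ATPase) genes described here are 10 of the 43629 genes counted in Dicer_KO mouse embryonic stem cells (mESCs). They encode the catalytic subunit A (Atp6v1a), the isoforms of subunits B (Atp6v1b1 and Atp6v1b2) and C (Atp6v1c1 and Atp6v1c2) of the cytosolic V1 sector, and isoforms of subunits a (Atp6v0a1, Atp6v0a2 and Atp6v0a4) and d (Atp6v0d1 and Atp6v0d2) of the membrane-bound V0 sector. The set was selected from the measured counts of Atp6v1b1, taken up for its contrast between Dicer_KO and wild-type mESCs in the study, and filled with related subunits by name. That contrast is not used here, and wild-type libraries were not analysed. All 10 symbols matched a single listed gene, and 9 of the 10 had a mean of at least 10 counts over the libraries, the minimum used below.

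PolyA-selected RNA of Dicer_KO mESCs gave 2 libraries, of which replicate 1 came from passage 7 and replicate 2 from passage 4, both labelled Dicer knockout on a 129/Ola background. The cells derive from the E14TG2a line, and the study made clonal lines with 2 different paired CRISPR/Cas9 deletions in Dicer1, kept in serum with LIF. The labels do not say which deletion a library carries. Line, passage number and library therefore cannot be told apart, and a difference between the libraries is a description of these libraries and no effect of Dicer loss. With a single group of 2 libraries no test between conditions exists, and intervals cover counting error only.

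V-ATPases couple ATP hydrolysis to proton transport and acidify endosomes, lysosomes and secretory vesicles, and in some epithelia and in osteoclasts they also act at the plasma membrane. ATP is split in V1 at the interfaces of alternating A and B subunits, protons pass through V0 between subunit a and the proteolipid ring, and subunits C and d take part in joining the sectors. Several subunits have isoforms with the same place in the complex. Atp6v1b2, Atp6v1c1, Atp6v0a1, Atp6v0a2 and Atp6v0d1 are expressed widely, whereas B1 and a4 are best known from acid-secreting intercalated cells of the kidney and from the inner ear, C2 from kidney and lung, and d2 from kidney and osteoclasts.

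The libraries held 41710122 and 41566184 counts on genes. Dicer1, the targeted gene, had 1343 counts in replicate 1 and 1510 in replicate 2, which without wild-type cells checks no label. All 10 pluripotency markers on the list had counts in both libraries, with Pou5f1 at 39069 and 43025. The lowest was Fut4 at 26 and 2 counts, which in replicate 2 is under the floor of 3 counts used below. Of the fibroblast markers, which would mark feeder cells, 3 of 10 were at 0 in replicate 1 and 3 of 10 in replicate 2. The highest of them was Thy1, with 823 and 621 counts. Across the 17788 genes averaging 10 counts or more, the median log2 ratio of replicate 1 over replicate 2 after TMM scaling was 0.02, with quartiles at -0.38 and 0.54.

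The promoters of 3 of the genes are shown first, since they set the isoforms B1 and a4, which differed most between the libraries, beside subunit A, which had nearly the same counts in both. Each run gives the 250 bases before the RefSeq transcription start in GRCm38.p6, 5′ to 3′ on the strand of the gene, and capitals mark the letters TCACGTGA. The Atp6v1a run lies within that gene as GENCODE M21 places it, so it is not upstream of the outermost annotated start. This palindrome holds the E-box CACGTG and is the core of the CLEAR element, to which the lysosomal regulators TFEB and TFE3 are known to bind.
Atp6v1b1 promoter, chr6:83742767-83743016, plus strand: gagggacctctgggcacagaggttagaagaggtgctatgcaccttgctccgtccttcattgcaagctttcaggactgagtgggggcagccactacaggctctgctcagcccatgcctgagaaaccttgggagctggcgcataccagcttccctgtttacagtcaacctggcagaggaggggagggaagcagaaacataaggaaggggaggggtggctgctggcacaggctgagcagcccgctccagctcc
Atp6v0a4 promoter, chr6:38124587-38124836, minus strand: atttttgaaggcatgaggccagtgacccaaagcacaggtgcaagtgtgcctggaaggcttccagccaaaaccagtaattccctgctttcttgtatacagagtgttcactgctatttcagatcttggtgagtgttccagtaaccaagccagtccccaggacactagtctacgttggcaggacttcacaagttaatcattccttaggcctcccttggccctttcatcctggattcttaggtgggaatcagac
Atp6v1a promoter, chr16:44139260-44139509, minus strand: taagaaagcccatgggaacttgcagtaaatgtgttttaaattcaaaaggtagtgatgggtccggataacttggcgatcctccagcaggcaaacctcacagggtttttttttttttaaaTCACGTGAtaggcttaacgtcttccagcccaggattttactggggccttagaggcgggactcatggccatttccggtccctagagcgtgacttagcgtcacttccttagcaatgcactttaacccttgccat

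The RefSeq promoter table held 6 of the 10 genes, in windows of 300 bases that include 50 bases after the start. CACGTG, searched on both strands, was found in 2 of the 6, Atp6v1a and Atp6v0d1, and both matches lay within TCACGTGA. Over all 32851 promoter windows 7.15% held CACGTG and 0.974% held TCACGTGA. In Atp6v1a the CACGTG began 131 bases before the RefSeq start. Its window (44139210 to 44139509) lies within the GENCODE M21 gene, which runs to 44139705 on the minus strand. The match is therefore downstream of the outermost annotated start. Among the other V-ATPase genes listed below, 18 of 24 were in the table, and 4 of these held CACGTG in at least 1 of their windows. CpG dinucleotides were few in the windows of Atp6v0a4 (1) and Atp6v1b1 (3), against 7 in Atp6v0a1, 10 in Atp6v1a, 22 in Atp6v1c2 and 26 in Atp6v0d1, with a median of 7 over all windows. The windows of Atp6v0a1 and Atp6v1c2 also lie within their GENCODE genes, while those of Atp6v0a4, Atp6v1b1 and Atp6v0d1 lie at the outer end. The windows are thus not alike in position.

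Levels of different genes were compared per kb of annotated exon and per M counts on genes, here called the level per kb. Subunit A, Atp6v1a (ENSMUSG00000052459), is a minus-strand gene of chromosome 16 (GRCm38, 44085402 to 44139705). Its counts were 8250 in replicate 1 and 7824 in replicate 2, a level per kb of 31.9 ± 1.12 (SD, n = 2), which placed it at percentile 89.9 of the 17651 genes averaging 10 counts or more and of known length. Its libraries were nearly level, with replicate 2 1.03-fold above replicate 1 after TMM scaling and slightly below it when scaled by total counts.

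Atp6v1b2 (ENSMUSG00000006273, chromosome 8, 69088646 to 69113711, plus strand) encodes the widely expressed, non-catalytic B2. It had 7700 and 8774 counts in replicates 1 and 2, and at 37.3 ± 3.53 (SD, n = 2) it had the highest mean level per kb of the 10 genes. Replicate 2 was higher by 1.24-fold. Its relative Atp6v1b1 (ENSMUSG00000006269, chromosome 6, 83742990 to 83758855, plus strand), which encodes the B1 isoform of renal intercalated cells, had 406 and 187 counts. These are 9.73 CPM in replicate 1 (95% Wilson interval 8.83 to 10.7) and 4.5 CPM in replicate 2 (3.90 to 5.19), where CPM stands for counts per M counts on genes. The level per kb was 2.22 and 1.03. Replicate 1 was 1.99-fold higher, just short of the 2-fold threshold, with a log2 ratio of 0.99 (95% counting interval 0.74 to 1.25).

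Subunit C holds V1 on V0 and is released when the complex comes apart. Atp6v1c1 (ENSMUSG00000022295, chromosome 15, 38661933 to 38692446, plus strand) had 4968 and 3212 counts and a level per kb of 17.5 ± 5.28 (SD, n = 2), with a log2 ratio of 0.51 (0.44 to 0.57). Its chromosome was higher in replicate 1 as a whole. The 683 genes of chromosome 15 had a median log2 ratio of 0.59, while every other autosome had a median from -0.08 to 0.08, and the 13 genes within 1 Mb of Atp6v1c1 had a median of 0.55. The part of the chromosome in the ratio of Atp6v1c1 was not tested. Atp6v1c2 (ENSMUSG00000020566, chromosome 12, 17284721 to 17329359, minus strand) had 76 and 53 counts and the lowest level per kb of the 9 detected genes, 0.712 ± 0.178 (SD, n = 2). Its log2 ratio of 0.39 had a counting interval of -0.13 to 0.93, so that a difference between the libraries was not detectable at this depth.

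**Figure D1:**
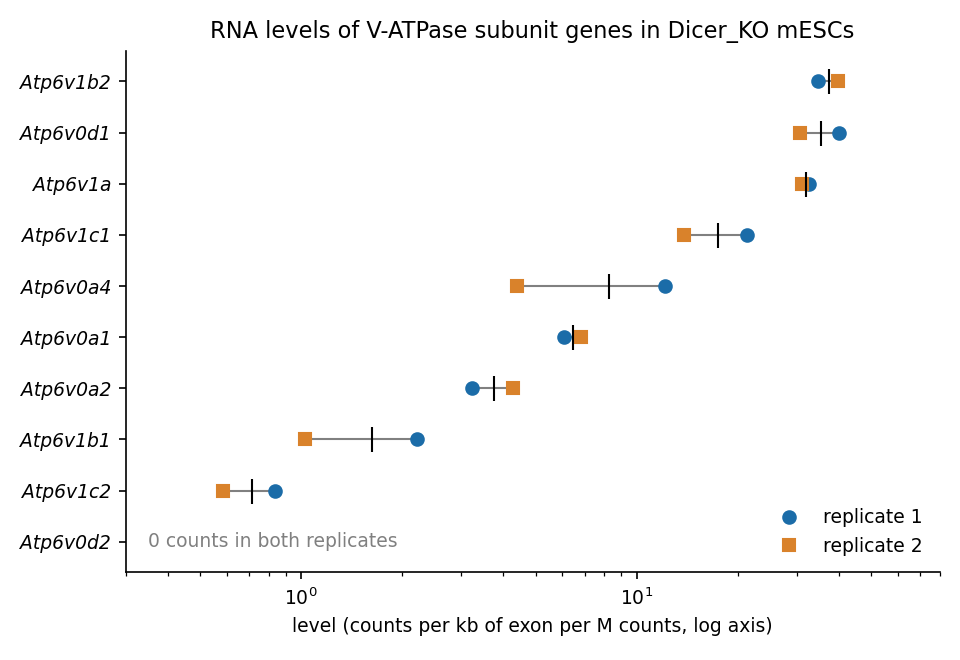
Level of each gene in counts per kb of exon per M counts, on a log axis, in replicate 1 (circles) and replicate 2 (squares), with the mean as a vertical tick. Atp6v1b2, Atp6v0d1 and Atp6v1a lie near each other at the top, with means of 37.3, 35.4 and 31.9, and Atp6v0a4 has the widest gap, at 12.1 and 4.4.

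In V0, subunit a carries the paths by which protons enter and leave the ring, and its isoforms differ in the membranes to which they bring the pump. Atp6v0a4 (ENSMUSG00000038600, chromosome 6, 38048483 to 38124586, minus strand), the isoform named for renal intercalated cells, had 2519 counts in replicate 1 and 909 in replicate 2. This is a level per kb of 12.1 and 4.4, and replicate 1 was 2.54-fold higher, with a log2 ratio of 1.35 (1.24 to 1.46). It was the only one of the 9 detected genes beyond 2-fold under TMM scaling. The widely expressed isoforms leaned the other way. Atp6v0a1 (ENSMUSG00000019302, chromosome 11, 101009452 to 101063719, plus strand), the main isoform of neurons, had 1658 and 1863 counts, 1.22-fold more in replicate 2. Atp6v0a2 (ENSMUSG00000038023, chromosome 5, 124628576 to 124724455, plus strand), an isoform of the Golgi and endosomes, had 904 and 1198 counts, 1.44-fold more in replicate 2, with a log2 ratio of -0.53 (-0.65 to -0.40). Of its exon bases 9.86% are covered by 4930404A12Rik on the other strand.

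Subunit d sits on the proteolipid ring and links it to the central stalk. Atp6v0d1 (ENSMUSG00000013160, chromosome 8, 105524465 to 105566047, minus strand) had 2996 and 2284 counts, a level per kb of 35.4 ± 6.66 (SD, n = 2), and a log2 ratio of 0.27 (0.19 to 0.35). Atp6v0d2 (ENSMUSG00000028238, chromosome 4, 19876841 to 19922605, minus strand), the isoform required for the fusion of osteoclast precursors, had 0 counts in both libraries. Under a limit of 3 counts this allows up to 0.0719 CPM in replicate 1 and 0.0722 CPM in replicate 2. Its RNA was therefore not detectable at this depth.

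By mean level per kb the order was Atp6v1b2, Atp6v0d1, Atp6v1a, Atp6v1c1, Atp6v0a4, Atp6v0a1, Atp6v0a2, Atp6v1b1, Atp6v1c2 and Atp6v0d2. The values of the libraries overlapped between Atp6v1b2 and Atp6v0d1, between Atp6v0d1 and Atp6v1a, and between Atp6v0a4 and Atp6v0a1, so these neighbours did not differ beyond their spread. The other neighbours did not overlap. With lengths of the longest transcript in place of all exons, Atp6v1a moved ahead of Atp6v0d1, and the other places were as before. The mean levels per kb were then 70.0 for Atp6v1b2, 10.2 for Atp6v0a1, 12.4 for Atp6v0a4 and 3.56 for Atp6v1b1, more than 1.5 times those per kb of all exons.

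Between the libraries, 1 of the 9 detected genes (Atp6v0a4) was beyond 2-fold, against 21.4% of the 17788 genes averaging 10 counts or more. In the direction of replicate 1 it was the same gene, against 14.2% of all genes. Under TMM scaling the share among the 9 is no higher than the background. Scaling by DESeq2 size factors, total counts or raw counts gave 2 of 9, near the background. Their log2 ratios ran from -0.53 to 1.35 with a median of 0.27, beside 0.02 over all genes, and 5 were higher in replicate 1 and 4 in replicate 2. The direction of Atp6v1a turned with scaling by total counts. Grouped by the isoforms' known expression, the 3 detected genes of specialised cells had log2 ratios of 0.99 (Atp6v1b1), 0.39 (Atp6v1c2, whose counting interval includes 0) and 1.35 (Atp6v0a4, the only one beyond 2-fold). The 6 widely expressed ones had a median of -0.17, with 2 higher in replicate 1. This grouping was made with the values known and carries no test.

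**Figure D2:**
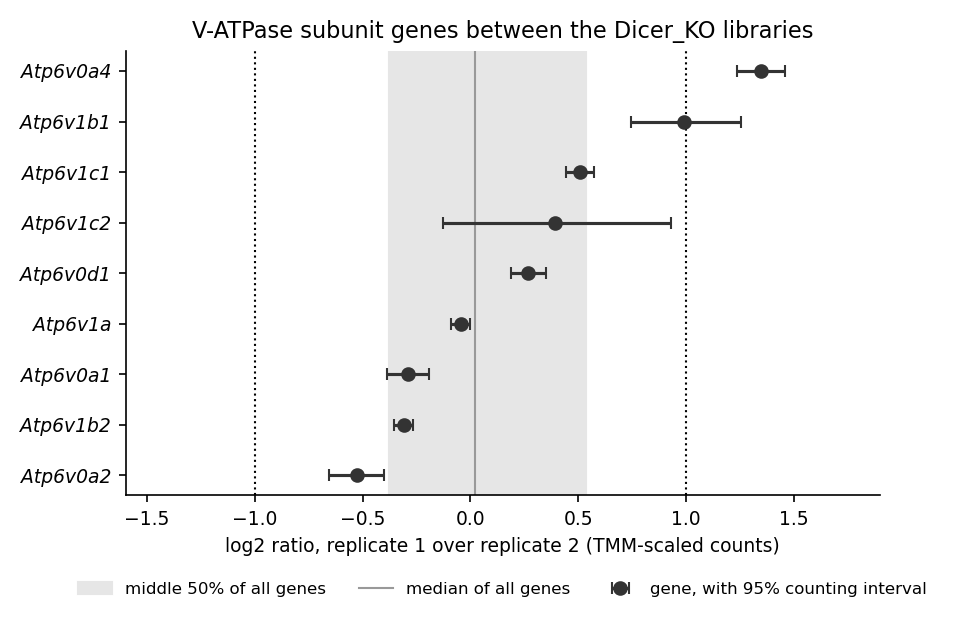
Log2 ratio of replicate 1 over replicate 2 after TMM scaling for the 9 detected genes (points) with 95% counting intervals (bars), the middle 50% of all genes as a grey band and 2-fold as dotted lines. Atp6v0a4 at 1.35 and Atp6v1b1 at 0.99 lie to the right of the band, and Atp6v0a2 at -0.53 lies to its left.

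The make-up of each subunit at the RNA level followed from these counts, and protein was not measured. B1 supplied 406 of 8106 B counts in replicate 1, or 5.01% (95% Wilson interval 4.55 to 5.51), and 187 of 8961 in replicate 2, or 2.09% (1.81 to 2.4). The intervals did not overlap. Per length, B1 made up 6.0% and 2.52% of the B level. C2 supplied 1.51% of the C counts in replicate 1 (1.21 to 1.88) and 1.62% in replicate 2 (1.24 to 2.12), so its share was alike in both libraries within counting error. Of the d counts, 0 of 2996 and 0 of 2284 were d2, which allows a share of up to 0.10% and 0.131%.

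Subunit a was the one with a mixed make-up at the RNA level. Another isoform, a3, is encoded by Tcirg1 on chromosome 19, known for the ruffled border of osteoclasts and for lysosomes, and had 1074 and 467 counts. Per length, a4 made up 44.9% of the a level in replicate 1 and 24.5% in replicate 2. The share of a1 was 22.4% and 38.1%, that of a2 was 11.9% and 23.9%, and that of a3 was 20.7% and 13.6%. Thus a4 had the most RNA of the a isoforms in replicate 1 and a1 in replicate 2. As shares of counts, a4 took 40.9% (39.7 to 42.2) and 20.5% (19.3 to 21.7), and a1 took 26.9% (25.8 to 28.1) and 42.0% (40.5 to 43.4).

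**Figure D3:**
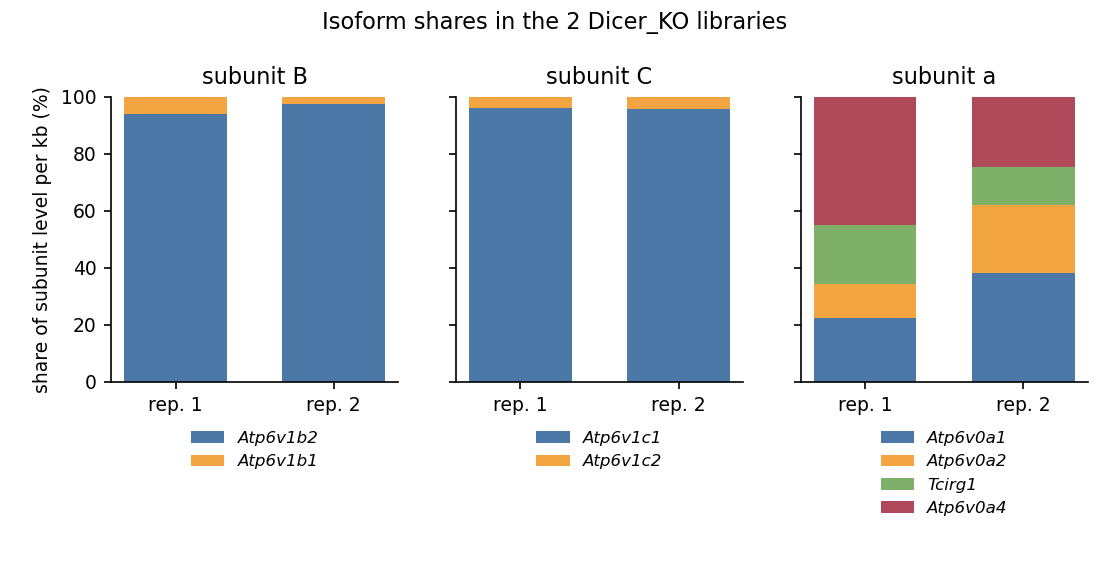
Share of each isoform in the summed level per kb of its subunit, in percent, in replicates 1 and 2. B2 and C1 make up over 90% of their subunits in both libraries, while a4 makes up 44.9% of subunit a in replicate 1 and 24.5% in replicate 2.

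Summed over isoforms, the level per kb was 31.9 ± 1.12 for A, 38.9 ± 2.68 for B, 18.2 ± 5.46 for C, 22.5 ± 6.41 for a and 35.4 ± 6.66 for d (SD, n = 2 each). The complex holds several A and B subunits and a single C, a and d. The subunit a total was 27.0 in replicate 1 and 18 in replicate 2.

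The other V-ATPase genes comprised 24 subunits, accessory subunits and assembly factors, of which 20 had a mean of at least 10 counts. Their median log2 ratio was 0.13, with 12 higher in replicate 1 and 8 in replicate 2. Beyond 2-fold were 2 of the 20, both higher in replicate 1, which is again under the 21.4% of all genes. They were Tcirg1, at a log2 ratio of 1.08 (0.92 to 1.24), and Atp6v0e2, an isoform of the small V0 subunit e with 257 and 77 counts, at 1.61 (1.24 to 2.0). The 7 assembly factors had a median of -0.19, and Ccdc115, which works with Tmem199 in building V0, was lowest at -0.72 from 817 and 1241 counts.

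The highest levels per kb among these genes were those of Atp6v1f, a small stalk subunit of V1 (53.9 and 41.3), and Atp6v1g1, the widely expressed subunit G of the peripheral stalk (45.6 and 25.9). The lowest were those of Atp6v1e2, the testis isoform of E, with 1 count in each library, and Atp6ap1l, a relative of the accessory subunit Atp6ap1, with 0 and 2. Atp6v1g3, the kidney isoform of G, had 4 and 1 counts, and Atp6v1g2, the brain isoform, had 29 and 16. Rnasek, listed among the V0 proteins, had 5 and 7 counts. Of its annotated exon bases 67.7% are also covered by Gm21988 on the same strand, and reads on overlapping genes were left out by the authors.

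Of the 10 genes, both with the largest ratios in replicate 1 (Atp6v0a4 and Atp6v1b1) lie on chromosome 6, whose 820 genes had a median log2 ratio of 0.03. The nearest gene below Atp6v1b1 is Vax2, a homeobox gene 4677 bases away with 448 and 170 counts (log2 ratio 1.27). The nearest above it is 1700124L16Rik, 2901 bases away on the other strand, with 25 and 13 counts (0.78). Tex261, 10030 bases above, was nearly level at 1782 and 1434 counts (0.19). The 37 genes within 1 Mb of Atp6v1b1 had a median of 0.20, and the 19 within 1 Mb of Atp6v0a4 one of 0.33. Tmem213, which lies within Atp6v0a4 on the other strand, had 154 and 5 counts (4.59), and 1.25% of the exon bases of Atp6v0a4 are covered by it. D630045J12Rik covers another 5.21% on the same strand and had 1163 and 730 counts (0.55). Of the genes that do not overlap Atp6v0a4, the nearest below is Svopl, 1487 bases away on the same strand, with 112 and 27 counts (1.89). The nearest above is Zc3hav1l, 162810 bases away, with 1767 and 1688 counts (-0.06).

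Markers of other cell types differed between the libraries beside these genes. For comparison, 21.4% of all genes averaging 10 counts or more were beyond 2-fold, and 14.2% were so in the direction of replicate 1. Among the 13005 genes averaging 100 counts or more, 14.0% were beyond 2-fold in either direction. Genes with fewer counts therefore passed more often than 21.4%, which limits the comparison for markers with few counts. Of the 10 intercalated cell markers, 8 had a mean of at least 10 counts, 6 of these were beyond 2-fold higher in replicate 1 and 1 (Hepacam2) beyond 2-fold lower, and their summed level was 36.3 CPM in replicate 1 and 8.85 CPM in replicate 2. Slc4a9, an anion transporter, held most of it with 1180 and 249 counts. The rest of the 8 averaged under 100 counts. Slc4a1 had 83 and 22, Rhcg 73 and 44, Dmrt2 49 and 7, and Insrr 48 and 10. Aqp6 had 45 and 12, Rhbg 21 and 9, and Hepacam2 7 and 15. The counting intervals of the log2 ratios of Rhbg (-0.09 to 2.41) and Hepacam2 (-2.76 to 0.16) included 0. Of the exon bases of Rhbg 61.4% are covered by Gm38392 on the same strand. The defining regulator Foxi1 had 4 and 0 counts and the exchanger Slc26a4 6 and 0. Of the 10 trophectoderm markers, 9 had a mean of at least 10 counts and 7 of these were beyond 2-fold higher in replicate 1, with a summed level of 542 and 163 CPM. Krt8 had 8004 and 1370 counts and Krt18 7162 and 880, both genes of chromosome 15, and Cdx2, the defining factor, 6 and 1. Their part in the values of Atp6v1b1 and Atp6v0a4 was not tested. In bulk RNA, more cells of a type and more RNA per cell cannot be told apart.

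The osteoclast and macrophage markers had a median log2 ratio of 0.09 over 8 genes, with summed levels of 69.8 and 50.1 CPM and Adgre1 at 0 in both libraries. Of the 8, 3 were beyond 2-fold higher in replicate 1, against 14.2% of all genes, and 0 lower. They were Acp5 (1381 and 545 counts), Ocstamp (37 and 4) and Csf1r (95 and 1). In direction, 4 of the 8 were higher in replicate 1 and 4 lower, with Ctsk lowest at a log2 ratio of -0.93 (15 and 27 counts). The mESC markers had a median of -0.01, with 1 of 10 (Fut4, 26 and 2 counts) beyond 2-fold. The primitive endoderm markers had one of 0.36, with 2 of 8 beyond 2-fold, beside 21.4% of all genes. The fibroblast markers had a median of 0.16 over 4 genes, with summed levels of 29.3 and 20.2 CPM. Of the 4, 1 (Pdgfrb, 285 and 91 counts) was beyond 2-fold, higher in replicate 1.

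**Figure D4:**
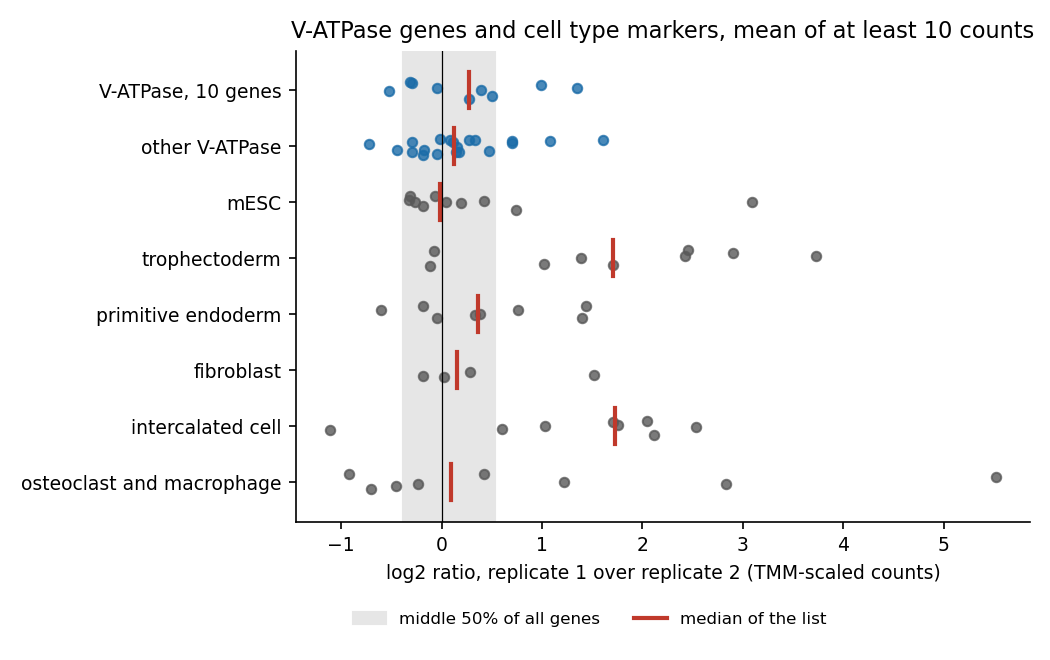
Log2 ratio of replicate 1 over replicate 2 for the genes of each list averaging 10 counts or more (points), the median of each list (red line) and the middle 50% of all genes (grey band). The medians of the trophectoderm (1.71) and intercalated cell (1.73) markers lie beyond the band, and those of both V-ATPase lists (0.27 and 0.13) lie within it.

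Mature miRNAs, which Dicer makes, act through pairing of their seed with the 3′ untranslated region (UTR) of a message. The miRNAs that the study probed in these cells were searched for matches to bases 2 to 8, the seed, which is in capitals below, and the sequences are those of RefSeq.
miR-295-3p: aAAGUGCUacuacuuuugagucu
miR-16-5p: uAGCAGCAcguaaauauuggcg

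In the longest annotated 3′ UTR of each gene, the letters AGCACTT, the match to miR-295-3p, were in 0 of 10 genes, where 14.7% of 21020 coding genes held them. TGCTGCT, the match to miR-16-5p, was in 3 of 10, where 20.3% of coding genes held it. The matches lay in Atp6v1a (2), Atp6v1b2 (2, overlapping) and Atp6v1c1 (1), which encode widely expressed V1 subunits. No match was found in the UTRs searched for Atp6v1b1, of 1363 nt, and Atp6v0a4, of 507 nt. The longest annotated transcript of Atp6v1b1 has only 1999 nt, so its UTR may come from a shortened transcript model. Other annotated UTRs of these genes were not searched. The matches are shown in capitals within up to 30 bases of transcript, to give their surroundings, and whether any of them is used was not measured.
Atp6v1a, first match: acacagtggacTGCTGCTgaagaaggata
Atp6v1a, second match: tggattagtggTGCTGCTtaatcggtttg
Atp6v1b2, first match: tagcTGCTGCTgcttgtgtggc
Atp6v1c1, match: gcttcaggggcTGCTGCTgccgagctctg

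Reads shared between relatives could have blurred the isoform counts. Of the windows of 50 bases in the longest transcript of each gene, none was shared with a transcript of another gene for 9 of the 10 genes. Within these transcripts the B, C, a and d isoforms of the 10 genes are told apart at that length. Counts cover all annotated exons, and exons outside the longest transcript were not searched. That transcript has 1999 nt of 4381 exon bases for Atp6v1b1 and 2825 of 5305 for Atp6v1b2. In Atp6v1a, 40 of 4185 windows (0.956%) were also in Gm18990. Windows with mismatches were not searched, and the read length is not given in the sources used here.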

How the data were processed

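RNA of 2 Dicer_KO libraries was measured, grouped by their titles. The authors trimmed reads with Trimmomatic, aligned them to mm10 (GRCm38) with STAR 2.4.2a and assigned them to Ensembl genes by featureCounts 1.4.5-p1, leaving out reads where genes overlap. The deposited table of each library holds raw counts. STAR kept reads with many alignments, and how the gene counting treated these is not given in the sources used here. The libraries are labelled reverse-stranded, and whether the counting used strand is not given in the sources used here.

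For ratios, TMM factors from edgeR (version 4.0.16, R 4.3.3) put replicate 2 on the scale of replicate 1. DESeq2 (version 1.42.0) size factors, total counts and raw counts were alternatives. Log2 ratios used a pseudocount of 1 and genes averaging 10 counts or more, and their 95% intervals are exact binomial intervals of the counts without it (scipy 1.17.1). Exon lengths and positions came from GENCODE M21, in which 1081 listed identifiers had no entry. The scaled ratios were tested on simulated data in which far fewer genes differed than between these libraries. That test therefore does not check the scaling under the spread seen here. No p-value was computed. The members and lists were chosen with earlier results of these data known. All members were named, and of the other V-ATPase genes those beyond 2-fold, with the highest and lowest levels, of a shared subunit or under 10 counts, with the genes nearest to Atp6v1b1. Further neighbours, markers and Ccdc115 were named after their values were seen. Totals of 41710122 and 41566184 counts put the floor of 3 counts at 0.0719 and 0.0722 CPM.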

Additional observations from a re-analysis of the deposited data

How the results depend on the processing

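No paired analysis was possible because the design has a single group. Of 82 values computed under alternatives that keep both replicates, 52 stayed within the error of the value they replaced (SD, counting interval or, for counts of genes, 1.5 times). The number of members beyond 2-fold was 1, and 2 with DESeq2 size factors, total counts or raw counts, when Atp6v1b1 passed with a log2 ratio of 1.00, 1.11 and 1.11 and 21.5%, 22.1% and 22.0% of all genes were beyond 2-fold. It was 2 of 9 at 1.5-fold, against 39.6% of all genes, and 0 at 4-fold, against 5.71%. At a minimum mean of 100 counts it was 1 of 8, against 14.0% of the 13005 genes that passed this minimum. The members' median of 0.27 became 0.39 with total or raw counts, which move the median of all genes from 0.02 to 0.14, and 0.11 at a minimum mean of 100 counts, which leaves 8 members. The ratio of Atp6v1a turned from -0.05 to 0.071 with total counts and 0.076 with raw counts. For the other V-ATPase genes the median of 0.13 became 0.24 with total counts and 0.25 with raw counts. With no filter on low counts, 4 of 24 in place of 2 of 20 were beyond 2-fold. The share of all 43629 genes was then 18.2%. That base includes genes at 0 in both libraries, which cannot pass, so the shares are on unlike bases. The share of C2 in subunit C, 3.93%, was 4.75% with the longest transcript. In the 30 further values that leave out a replicate, a mean of 2 values always shifts by under 1 SD, so nothing follows from those values. Depth limits Atp6v1c2 and Atp6v0d2.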

Other observations

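Subunit c, the proteolipid, had few counts on its own gene. Atp6v0c, which encodes the ring protein that carries the protons, had 324 and 308 counts, a level per kb of 2.30 and 2.19. Atp6v0b, a related proteolipid of the ring, was at 23.3 and 19.0 per kb, and Atp6v0a2 at 3.22 and 4.29. The processed pseudogene Atp6v0c-ps2 on chromosome 6, at 37806086 to 37806550, had 2045 and 2147 counts over 465 exon bases. Of the 50-base windows of the Atp6v0c transcript, 12.2% were shared with other genes, all of them Atp6v0c pseudogenes. The part of shared reads in either count was not tested.

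Windows were also shared by the V1 subunits with the highest levels per kb outside the 10 genes. Of the windows of Atp6v1g1 19.2% were in Gm12344 or Gm13453, and of those of Atp6v1f 12.5% were in AC169506.3. The counts of Atp6v1g1 (2158 and 1222, log2 ratio 0.70) and Atp6v1f (2392 and 1824) are uncertain for that reason.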
